A study of Mus musculus with 3 samples.

Results

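The noncanonical and mesenchymal Wnt ligands examined here are 10 genes, Wnt2, Wnt2b, Wnt4, Wnt5a, Wnt5b, Wnt6, Wnt9a, Wnt9b, Wnt11 and Wnt16, chosen by gene symbol. Each symbol matched 1 row of the deposited table of 51826 genes. RNA came from spinal cord of C57BL/6 mouse embryos at embryonic day 13.5, with 1 library for each of 3 genotypes. The dE3 library carries Nestin-Cre with floxed exon 3 of Ctnnb1, a deletion labelled as gain of function. The cKO library carries Nestin-Cre with floxed exons 2 to 6 of Ctnnb1, a deletion labelled as loss of function. The WT library is labelled wild type, with no Cre or floxed allele named. Nestin-Cre is driven by a promoter active in neural progenitors, so cells of other origin in the same dissection need not carry either deletion. The number of embryos behind each library is not in the labels, and the library names of dE3 and WT share a tag that differs from that of cKO, so that the tag and the cKO genotype cannot be told apart.

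Wnt ligands are secreted, lipid-modified glycoproteins that bind Frizzled receptors. One branch of the pathway, called canonical, stabilises β-catenin, the product of Ctnnb1, which then acts with TCF/LEF transcription factors. Ligands such as Wnt5a and Wnt11 are best known for signals that do not need β-catenin and run through Ror and Ryk receptors, planar cell polarity proteins and calcium, guiding cell movement, axon growth and tissue elongation. Several of the others are known from mesenchyme, surface ectoderm, joints and kidney rather than from neural tissue.

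The libraries held 34790053 estimated counts in dE3, 33048837 in cKO and 32167470 in WT. Neuron markers stood at similar summed levels, 5019 CPM (counts scaled to library size) in dE3, 5126 in cKO and 5069 in WT, while the 6 neural progenitor markers summed to 1027 CPM in dE3, 640 in cKO and 729 in WT. All markers of both lists were detected in each library. Among the progenitor markers, Hes5 had 2340 counts in dE3, 1062 in cKO and 929 in WT, and Sox1 had 241 in dE3, 587 in cKO and 647 in WT. The targeted gene Ctnnb1 had 16158 counts in dE3, 13936 in cKO and 17387 in WT, a total that also covers exons outside the deletions. Set against WT at a threshold of 2-fold, 9 of 10 canonical Wnt target genes were higher in the dE3 library and 0 of 10 were higher or lower in the cKO library. Axin2, a feedback scaffold of β-catenin degradation, had 9664 counts in dE3, 1182 in cKO and 1321 in WT.

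With 1 library per genotype there is no spread between replicates and no p-value. A difference was called when the ratio of scaled counts was at least 2 in either direction and its exact 95% counting interval excluded 1, among genes with at least 20 counts in at least 1 library. The intervals, given in brackets after each ratio, cover counting error only. Each statement is about these 3 libraries and not about the genotypes in general. In whole tissue, fewer cells of a type and less RNA per cell cannot be told apart.

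Of the 10 ligands, Wnt5a, Wnt6, Wnt11 and Wnt16 were called higher in dE3 than in WT, each by between 2.27-fold and 2.51-fold, and none was called lower. Over all genes tested in that comparison, 6.52% were called higher and 3.78% lower. Wnt2, Wnt6 and Wnt16 were called higher in cKO than in WT, where 3.5% of all genes were called higher and 3.42% lower, and again none of the 10 was called lower. Between the mutants, only Wnt5a was called, higher in dE3 than in cKO, where 6.62% of all genes were higher and 4.38% lower. The WT library serves in both comparisons with a mutant, so a low WT value enters both.

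Counts of called ligands depend on which of them had enough reads. Wnt9b stayed below the minimum in every library. Wnt2 passed it only through cKO, the library in which it was called, and Wnt16 only through the 2 mutant libraries, in which it was called. The other 7 had at least 20 counts in WT, and among those 7 the called genes were Wnt5a, Wnt6 and Wnt11 in dE3 and Wnt6 in cKO. The same 7 had at least 100 counts in a library, Wnt6 only through the 2 mutant libraries and Wnt11 only through dE3. Those were the libraries in which they were called. Among all genes with at least 100 counts in a library, 4.55% were called higher in dE3 and 1.84% in cKO. No such share was taken over genes with at least 20 counts in WT. The median log2 ratio of the 9 measured ligands was 0.697 in dE3 against WT, 0.545 in cKO against WT and -0.316 in dE3 against cKO. The same median over all measured genes was 0.0042, 0.0024 and 0.0169 in those comparisons. With Wnt9b included, the ligand medians were 0.94, 0.56 and -0.29. The median of 0.697 was the value of Wnt2, with 16 counts in dE3 and 9 in WT. In dE3, Wnt2b, Wnt4, Wnt5b and Wnt9a, uncalled and with at least 20 counts in WT, had log2 ratios of -0.12, -0.27, 0.01 and 0.14. Those of Wnt5a, Wnt6 and Wnt11 were 1.21, 1.21 and 1.18.

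**Figure D1:**
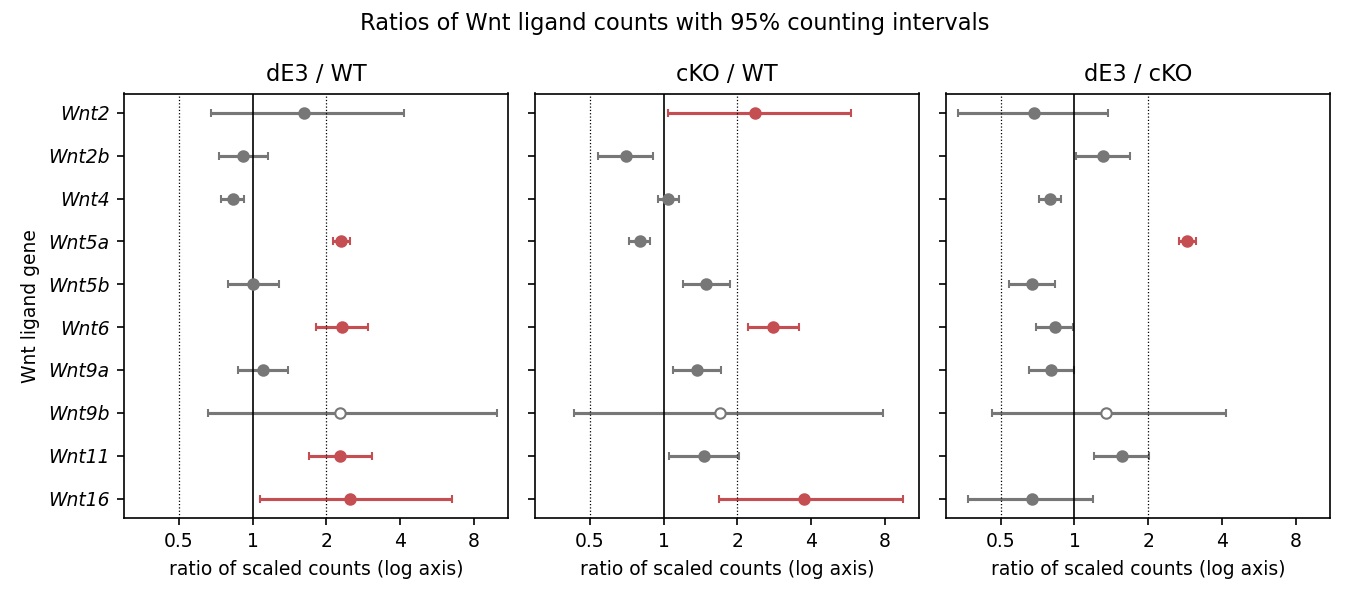
Ratio of scaled counts (log axis) for each of the 10 ligand genes in dE3 over WT, cKO over WT and dE3 over cKO, with exact 95% counting intervals as bars, n = 1 library per genotype. Red points were called, open points mark Wnt9b, which was below the minimum, and dotted lines mark a ratio of 2 and its inverse. Wnt6 and Wnt16 are red against WT in both mutants, while Wnt5a lies above 2 in dE3 and below 1 in cKO.

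Per transcript length, the ligands covered a wide range of levels. In dE3, Wnt5a led with 38.1 TPM (deposited values, scaled per transcript length and library), 3.33 times the level of Wnt4, the second, and its counting interval lay apart from that of Wnt4. In cKO, Wnt4 came first at 14.3 TPM, ahead of Wnt6 at 10.2 TPM and Wnt5a at 10.1 TPM, whose intervals overlapped. The TPM of Wnt5a depends on the estimated split of reads between transcripts of 7010 and 3650 bases. Its log2 ratio in cKO against WT was -0.63 by TPM and -0.32 by counts. In dE3 against WT it was 1.29 and 1.21, and in dE3 against cKO 1.92 and 1.53. In WT, Wnt5a at 15.6 TPM and Wnt4 at 13.6 TPM stood first with overlapping intervals, apart from the next, Wnt5b at 4.35 TPM. Wnt5b, Wnt6, Wnt2b, Wnt9a and Wnt11 followed each other in WT, with overlapping intervals between neighbours, from 4.35 down to 2.84 TPM. The lowest 3 were Wnt2, Wnt16 and Wnt9b in every library, with Wnt9b last at 0.155 TPM in dE3, 0.115 in cKO and 0.0679 in WT.

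Summed, the 10 ligands held 80.5 TPM in dE3, 57.0 in cKO and 47.4 in WT. That was 61.6% of the TPM of all 19 Wnt ligand genes in dE3, 40.6% in cKO and 33.3% in WT. Wnt5a alone made up 47.3% of the sum over the 10 in dE3, 17.6% in cKO and 32.8% in WT. The share also moved with the remaining 9 ligands, those of the canonical class, of which dE3 had 2 called higher and 3 called lower against WT, and cKO 0 higher and 1 lower. Called in dE3 were Wnt10a and Wnt10b, which were higher, and Wnt1, Wnt7b and Wnt8b, which were lower. Wnt10a and Wnt10b passed the minimum only through dE3, where they were high, and Wnt8b only through WT. Wnt7b, the most abundant of the 9 by counts in each library, had 849 counts in dE3, 2119 in cKO and 2514 in WT. The summed level of the canonical class was 61.5 CPM in dE3, 110 in cKO and 126 in WT.

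**Figure D2:**
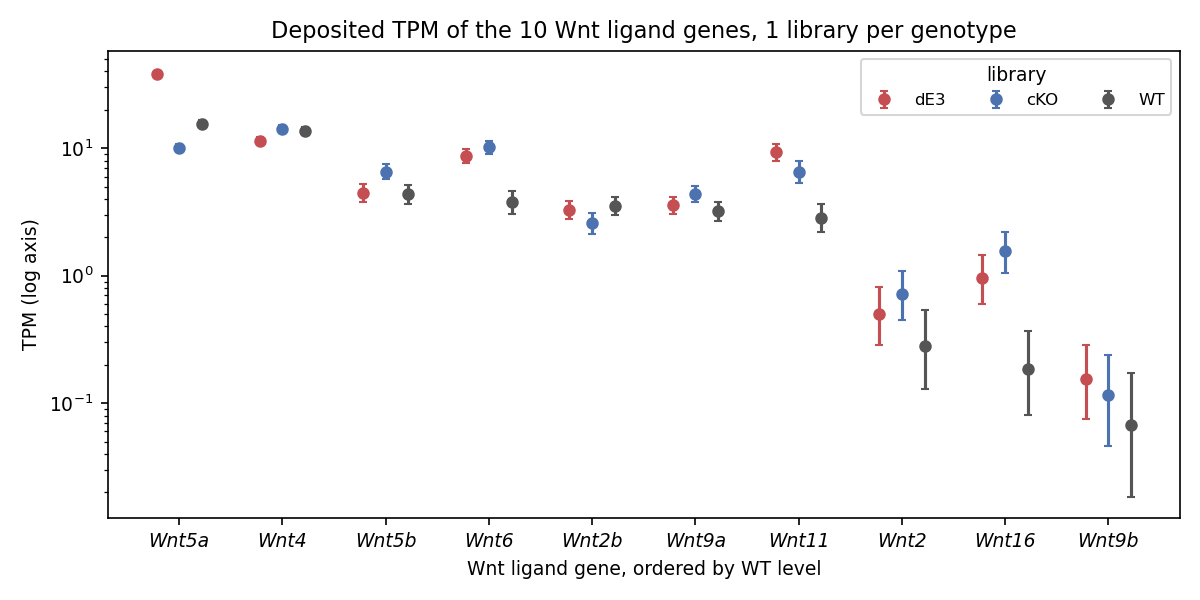
Deposited TPM (log axis) of the 10 ligand genes in the dE3, cKO and WT library, ordered by the WT level, with bars for the exact 95% counting interval, n = 1 library per genotype. The dE3 value of Wnt5a, 38.1 TPM, stands above every other point, and the 3 genes at the right, Wnt2, Wnt16 and Wnt9b, stay below 2 TPM in each library.

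Wnt5a (ENSMUSG00000021994, chromosome 14, 28504750 to 28527447, plus strand, GRCm38) is the best studied noncanonical ligand, needed in mice for the elongation of limbs and body axis, and a repellent of corticospinal axons through Ryk. It had 2299 counts in dE3, 750 in cKO and 909 in WT. The dE3 library was the high one, and cKO lay somewhat below WT. Wnt5a was 2.31-fold higher in dE3 than in WT (2.13 to 2.49) and 2.89-fold higher in dE3 than in cKO (2.66 to 3.14). The cKO value was 0.798 of WT (0.724 to 0.880), which was not called.

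The counts of Wnt5a were divided between annotated starts, a grouping made after the values were seen, and the assignment of reads to transcripts is itself an estimate. Transcripts that start at 28504750 to 28505900 had 1119 counts in dE3, 669 in cKO and 516 in WT. Those that start farther downstream, at 28510618 to 28511451, had 1180 counts in dE3, 81 in cKO and 393 in WT. The downstream group thus held 51.3% of the gene's counts in dE3 (exact interval 49.3 to 53.4), 10.8% in cKO (8.67 to 13.2) and 43.2% in WT (40.0 to 46.5). Against WT, the upstream group had a ratio of 1.98 (1.78 to 2.20) in dE3 and 1.25 (1.12 to 1.41) in cKO. The downstream group had a ratio of 2.74 (2.44 to 3.08) in dE3 and 0.199 (0.155 to 0.254) in cKO.

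Most of the downstream counts belonged to 1 protein-coding transcript, ENSMUST00000112272, with 1117 counts in dE3, 48 in cKO and 361 in WT. Without it the log2 ratio of Wnt5a was 0.98 in dE3 against WT, short of a call, and 0.67 in dE3 against cKO. In cKO against WT the log2 ratio without it was 0.31, against -0.32 with it. The antisense gene Gm2670 overlaps some of the downstream starts and had 109 counts in dE3, 33 in cKO and 46 in WT. Since no source used here states whether counting used strand, reads of the pair cannot be told apart where they overlap. Gm2670 ends at 28511392, and ENSMUST00000112272 starts beyond it, at 28511405.

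Wnt11 (ENSMUSG00000015957, chromosome 7, 98835112 to 98855195, plus strand) directs convergent cell movements in zebrafish and frog gastrulae and branching of the ureteric bud in mice. It had 162 counts in dE3, 98 in cKO and 65 in WT, so that both mutant libraries lay above WT. The ratio to WT was 2.27 (1.69 to 3.08) in dE3, which was called, and 1.46 (1.06 to 2.03) in cKO, which was not. By deposited TPM, Wnt11 stood at 9.33 in dE3, 6.56 in cKO and 2.84 in WT. On that scale a call needed only a ratio of at least 2, with no interval. By that looser rule Wnt11 was also called in cKO, with a log2 ratio of 1.21, where 4.27% of all genes were called higher. Of the cKO value, 3.4 TPM lay on ENSMUST00000165122, a transcript of 634 bases with 29 counts in cKO and 0 in WT. The TPM call thus depends on how reads were assigned to transcripts.

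As estimated, the counts of Wnt11 fell on different transcripts in the mutant and WT libraries. Here too the assignment of reads to overlapping transcripts is an estimate, made from few counts. Transcripts that start at 98835112 to 98835131 had 76 counts in dE3, 52 in cKO and 0 in WT. Against a floor of 3 counts in the WT library, that start group was 23.1-fold higher in dE3 and 16.8-fold higher in cKO. The lower bounds of the exact intervals against the 0 counts of WT were 18.3 in dE3 and 13.2 in cKO. A second group, starting at 98838845 to 98838898, had 79 counts in dE3, 40 in cKO and 63 in WT, with ratios to WT of 1.14 (0.811 to 1.62) in dE3 and 0.614 (0.403 to 0.928) in cKO. All 63 WT counts of the second group lay on ENSMUST00000167303, which had 36 counts in dE3 and 1 in cKO. The alternative transcript of that group, ENSMUST00000165240, had 43 counts in dE3, 39 in cKO and 0 in WT. When the most different transcript was left out, the log2 ratio of Wnt11 was 0.74 in dE3 against WT, which ended the call, and 5.55 in cKO against WT, where 2 WT counts remained.

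**Figure D3:**
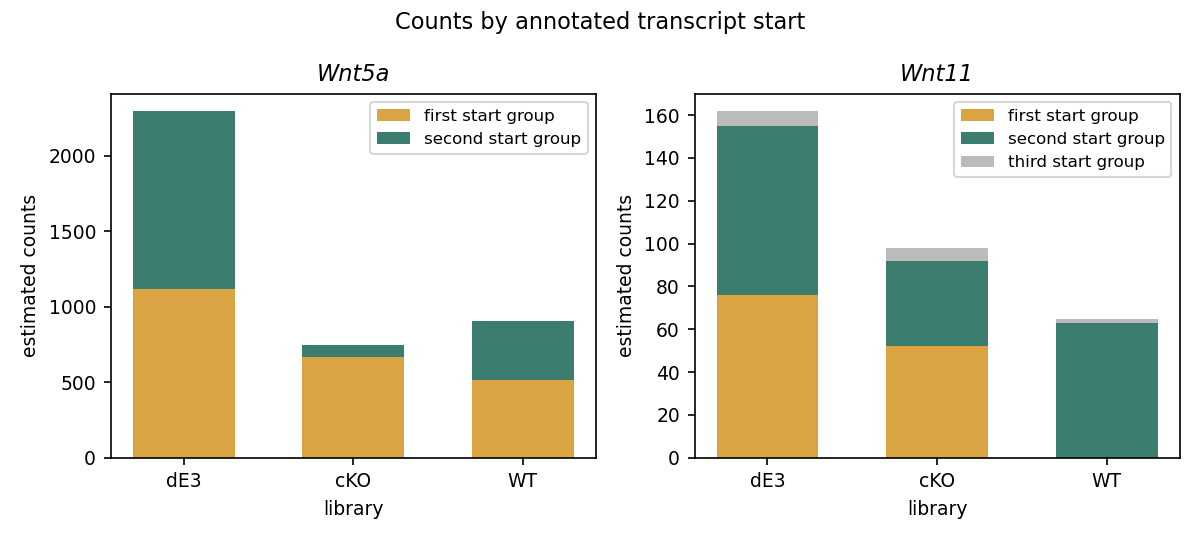
Estimated counts of Wnt5a and Wnt11 in the dE3, cKO and WT library, stacked by groups of annotated transcript starts in the order of transcription, n = 1 library per genotype. The second start group of Wnt5a shrinks to 81 counts in cKO, against 393 in WT, and the first start group of Wnt11 is absent from the WT bar.

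The bases before the starts of Wnt11 are shown because its counts divided by start, with those of Wnt6 and Wnt16, the genes called higher in both mutants. Each sequence is the 250 bases upstream of an annotated start (RefSeq, GRCm38.p6), written 5′ to 3′ along the gene, and capitals mark the TCF/LEF core motif CTTTGAT, or ATCAAAG where it lies on the opposite strand.
Wnt11 first start, chr7:98834862-98835111, plus strand: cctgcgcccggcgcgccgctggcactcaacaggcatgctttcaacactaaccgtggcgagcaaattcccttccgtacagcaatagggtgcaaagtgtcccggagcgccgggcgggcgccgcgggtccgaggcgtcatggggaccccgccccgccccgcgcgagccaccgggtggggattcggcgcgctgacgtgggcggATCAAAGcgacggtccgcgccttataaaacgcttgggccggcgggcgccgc
Wnt11 second start, chr7:98838595-98838844, plus strand: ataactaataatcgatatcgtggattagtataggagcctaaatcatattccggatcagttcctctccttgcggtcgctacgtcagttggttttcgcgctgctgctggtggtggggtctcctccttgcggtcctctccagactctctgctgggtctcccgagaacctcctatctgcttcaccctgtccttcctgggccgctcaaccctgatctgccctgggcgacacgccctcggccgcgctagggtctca
Wnt6, chr1:74771642-74771891, plus strand: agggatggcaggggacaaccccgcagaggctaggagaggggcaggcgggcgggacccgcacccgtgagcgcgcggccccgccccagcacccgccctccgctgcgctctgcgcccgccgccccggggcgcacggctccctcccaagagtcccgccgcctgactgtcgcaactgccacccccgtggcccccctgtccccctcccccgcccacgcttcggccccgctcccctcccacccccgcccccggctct
Wnt16, chr6:22287977-22288226, plus strand: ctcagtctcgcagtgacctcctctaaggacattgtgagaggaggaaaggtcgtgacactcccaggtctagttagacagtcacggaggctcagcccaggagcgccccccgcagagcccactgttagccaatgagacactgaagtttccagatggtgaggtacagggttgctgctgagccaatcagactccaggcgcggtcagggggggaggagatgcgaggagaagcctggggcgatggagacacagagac

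Of the 10 ligands, 9 had an entry among the RefSeq promoters, with 12 windows. Wnt5a had no entry, so its starts were not searched. The motif, searched on both strands and as the only motif, was found in 2 of the 12 windows, while 3.21% of all 32851 windows of the same length hold it. One was the window of the first Wnt11 start, where the first base of ATCAAAG lies 51 bases before the start, and the other the third window of Wnt5b, whose transcript had 0 counts in every library. A match of letters is a description and not a bound site. The window of the first Wnt11 start had a GC content of 70.8% with 37 CpG pairs, and that of the second start 56.8% with 16. The Wnt6 window had 79.6% and 28, and the Wnt16 window 59.2% and 9.

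Wnt4 (ENSMUSG00000036856, chromosome 4, 137277489 to 137299726, plus strand), which attracts commissural axons in the rodent spinal cord and is required for kidney tubules and ovary development, had 674 counts in dE3, 802 in cKO and 741 in WT. The libraries differed little. Its ratio to WT was 0.829 (0.746 to 0.922) in dE3 and 1.05 (0.947 to 1.16) in cKO, so that neither was called. All its counts lay on 1 transcript, and 4.33% of its 50-base words recur in other genes, as repeats. The share was larger for Wnt11, at 7.46%, all with Gm8398, an antisense pseudogene within its locus that had 0 counts in every library. For Wnt5a it was 3.38%, shared with 4 genes, Gm2670 among them, and for the remaining ligands it was 0. The effect of shared words on the transcript counts of Wnt11 and Wnt5a was not tested.

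Wnt5b (ENSMUSG00000030170, chromosome 6, 119432531 to 119544347, minus strand), a close relative of Wnt5a that acts on chondrocytes, had 148 counts in dE3, 207 in cKO and 134 in WT. The cKO library was the high one. The ratio to WT was 1.01 (0.792 to 1.28) in dE3 and 1.49 (1.20 to 1.87) in cKO, and dE3 against cKO gave 0.674 (0.542 to 0.836), none of them called. Of its 3 start groups, the farthest upstream took 148 counts in dE3, 205 in cKO and 134 in WT. Fbxl14, which lies within the Wnt5b locus on the opposite strand, had 1554 counts in dE3, 1522 in cKO and 1445 in WT.

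Wnt6 (ENSMUSG00000033227, chromosome 1, 74771892 to 74785322, plus strand) is a ligand of surface ectoderm that keeps the neighbouring somite epithelial in chick embryos. It had 244 counts in dE3, 277 in cKO and 96 in WT. Both mutant libraries lay far above WT and close to each other. The ratio to WT was 2.32 (1.82 to 2.97) in dE3 and 2.79 (2.21 to 3.56) in cKO, and dE3 against cKO gave 0.830 (0.696 to 0.989). Its protein-coding transcript carried 235 counts in dE3, 270 in cKO and 89 in WT. The remaining transcript, with a retained intron, had 9, 7 and 7 counts in dE3, cKO and WT, too few to compare.

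Wnt6 lies 6.193 kb from Wnt10a, a canonical-class ligand, on the same strand. Wnt10a had 320 counts in dE3, 6 in cKO and 2 in WT, with ratios to WT of 146 (40.1 to 1210) in dE3 and 2.90 (0.519 to 29.4) in cKO. The counting intervals of Wnt6 and Wnt10a did not overlap in dE3 against WT and overlapped in cKO against WT. In the other Wnt pairs within 100 kb, Wnt9a lies 16.175 kb from Wnt3a, which had 27 counts in dE3, 70 in cKO and 48 in WT. Wnt9b lies 24.328 kb from Wnt3, which had 383 counts in dE3, 435 in cKO and 397 in WT.

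Wnt9a (ENSMUSG00000000126, chromosome 11, 59306928 to 59333552, plus strand), which acts in the formation of synovial joints, had 168 counts in dE3, 197 in cKO and 139 in WT. Both mutants lay somewhat above WT. The ratio to WT was 1.10 (0.875 to 1.39) in dE3 and 1.37 (1.10 to 1.72) in cKO, neither of them called.

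Wnt16 (ENSMUSG00000029671, chromosome 6, 22288227 to 22298522, plus strand), known for its part in cortical bone thickness and expressed in developing joints, was low throughout, with 22 counts in dE3, 31 in cKO and 8 in WT. The exact Poisson intervals of these counts were 13.8 to 33.3 in dE3, 21.1 to 44.0 in cKO and 3.45 to 15.8 in WT, so that dE3 and WT overlapped. The ratio to WT was 2.51 (1.08 to 6.51) in dE3 and 3.75 (1.69 to 9.44) in cKO, the largest of the 10 in both comparisons. By deposited TPM, Wnt16 stood at 0.958 in dE3, 1.55 in cKO and 0.186 in WT, with larger log2 ratios to WT than by counts, 2.36 against 1.33 in dE3 and 3.06 against 1.91 in cKO. All 8 WT counts lay on ENSMUST00000128245, which had 1 count in dE3 and 6 in cKO. ENSMUST00000031681 had 14 counts in dE3, 6 in cKO and 0 in WT, and ENSMUST00000148639 had 7 in dE3, 19 in cKO and 0 in WT. Without the most different transcript the dE3 value was at a log2 ratio of -0.13 to WT and the cKO value at 0.54, and neither was called.

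Wnt2 (ENSMUSG00000010797, chromosome 6, 17988940 to 18030585, minus strand), which with Wnt2b specifies the lung from foregut endoderm in mice, had 16 counts in dE3, 22 in cKO and 9 in WT. The ratio to WT was 1.62 (0.674 to 4.16) in dE3 and 2.37 (1.05 to 5.84) in cKO, where the lower bound lay just above 1. Wnt2b (ENSMUSG00000027840, chromosome 3, 104945272 to 104961921, minus strand) had 150 counts in dE3, 108 in cKO and 149 in WT. The cKO library was the low one for Wnt2b, with a ratio to WT of 0.701 (0.542 to 0.905), while dE3 against WT gave 0.918 (0.727 to 1.16), and neither was called. Wnt9b (ENSMUSG00000018486, chromosome 11, 103727364 to 103749821, minus strand), the inducer of kidney tubules from the ureteric bud, had 10 counts in dE3, 7 in cKO and 4 in WT, too few for a call at this depth.

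Some of the receptors and partners that serve these ligands were called. Over all genes tested against WT, 6.52% were called higher and 3.78% lower in dE3. In cKO, 3.5% were called higher and 3.42% lower. The counts of called genes in the lists were not tested against these shares. Among 5 noncanonical co-receptors, dE3 had 2 called higher and 0 lower against WT, and cKO 1 higher and 0 lower. The list had a median log2 ratio of 0.68 in dE3 against WT and 0.45 in cKO against WT. Ror2, a tyrosine kinase receptor for Wnt5a, had 815 counts in dE3, 452 in cKO and 199 in WT. It was 3.73-fold higher in dE3 (3.19 to 4.38) and 2.20-fold higher in cKO (1.86 to 2.61). Its relative Ror1 had 342 counts in dE3, 211 in cKO and 138 in WT, and was called in dE3 at 2.26-fold (1.85 to 2.77) but not in cKO, at 1.48 (1.19 to 1.85). Ryk, the receptor of axon repulsion by Wnt5a, had 2418 counts in dE3, 1892 in cKO and 1938 in WT, and Ptk7, a planar polarity co-receptor, had 4373, 3512 and 2487 in dE3, cKO and WT. Neither was called.

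Of 10 Frizzled receptors, only Fzd10 was called, higher in dE3 than in WT, with 11451 counts in dE3, 1143 in cKO and 1367 in WT. The Frizzled list had a median log2 ratio of 0.54 in dE3 against WT and 0.24 in cKO against WT. Of 3 LRP genes, Lrp5, Lrp6 and Lrp4, only Lrp4 was called against WT. It was higher in dE3, with 4330 counts in dE3, 1073 in cKO and 1417 in WT. Wls, which carries Wnt proteins to the cell surface, had 3140 counts in dE3, 1918 in cKO and 1563 in WT, a ratio to WT of 1.83 (1.72 to 1.95) in dE3 and 1.19 (1.11 to 1.27) in cKO. Porcn, the enzyme that attaches their lipid, had 1275 counts in dE3, 1082 in cKO and 1075 in WT. Neither was called. Within the whole list of 8 secretion and release genes, dE3 had 2 called higher and 0 lower, and cKO 1 higher and 0 lower. These were Notum, a secreted enzyme that removes the lipid, with 4600 counts in dE3, 124 in cKO and 58 in WT, called in both mutants, and the heparan sulfate proteoglycan Gpc3, with 3928, 2612 and 1420 in dE3, cKO and WT, called in dE3.

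Downstream, the planar cell polarity genes stood closer to WT. Of 19 core genes, dE3 had 0 called higher and 1 lower against WT, and cKO 1 higher and 0 lower. The list had a median log2 ratio of 0.02 in dE3 against WT and -0.07 in cKO against WT. The called gene was Prickle4 in both, with 7 counts in dE3, 43 in cKO and 17 in WT, so that it passed the minimum only through cKO. Of 19 calcium and JNK effectors, 2 were higher in dE3 and 1 in cKO, and 0 were lower. Over all genes, 6.52% were called higher in dE3 and 3.5% in cKO. The calcium-responsive transcription factor gene Nfatc1 had 452 counts in dE3, 248 in cKO and 115 in WT, and Nfatc4 had 2339 in dE3, 699 in cKO and 599 in WT. Nfatc1 was called in both mutants and Nfatc4 in dE3. Of 11 secreted Wnt antagonists, 10 were measured. In dE3, 4 were called higher (Wif1, Dkk1, Dkk2 and Dkk4) and in cKO 1 (Sfrp5), with 0 lower in either. Dkk4, with 21 counts in dE3 and 0 in cKO and WT, passed the minimum only through dE3. Dkk2 had 267 counts in dE3, 108 in cKO and 78 in WT, and Sfrp5 had 362 in dE3, 483 in cKO and 192 in WT.

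Markers of tissues next to the cord moved with the mutant libraries as well. All 12 cartilage and sclerotome markers were called higher in dE3 than in WT and 11 in cKO, with summed levels of 848 CPM in dE3, 380 in cKO and 132 in WT. The 12 meninges and mesenchyme markers summed to 1317 CPM in dE3, 1590 in cKO and 715 in WT, with 5 called higher in dE3, 4 in cKO and 0 lower. Both lists had every marker detected in each library. Of the 12 skeletal muscle markers, 10 were measured, and those 10 were called in dE3 and 8 of them in cKO. The summed muscle level was 167 CPM in dE3, 42.7 in cKO and 10.6 in WT, with Ckm, Myf5, Myf6 and Tnni1 at 0 in WT and Ckm and Myf6 at 0 in cKO. Of 8 epidermis markers, 7 were called higher in dE3, and 2 were called higher and 1 lower in cKO, with summed levels of 26.5 CPM in dE3, 9.84 in cKO and 8.26 in WT, and Krt17 at 0 in WT. Ckm, Tnni1 and Krt17, at 0 in WT, passed the minimum only through mutant libraries. Inside the cord, the 6 floor plate markers summed to 275 CPM in dE3, 675 in cKO and 635 in WT, with 2 called lower in dE3. The 6 dorsal root ganglion markers summed to 195 CPM in dE3, 495 in cKO and 258 in WT, with 2 called higher in cKO. The part of these tissues in the levels of the Wnt ligands was not tested.

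Which mutant stood higher differed from list to list. The cartilage sum was 2.23 times as high in dE3 as in cKO and the muscle sum 3.92 times, while the meninges and mesenchyme sum was 0.828 times as high. Among the ligands called against WT, Wnt5a was higher in dE3 than in cKO at 2.89-fold, and Wnt11 had a ratio of 1.56 (1.20 to 2.02). Wnt6 at 0.830 (0.696 to 0.989), Wnt16 at 0.669 (0.369 to 1.19) and Wnt2 at 0.685 (0.336 to 1.37) had ratios below 1. Apart from Wnt5a, none of these was called.

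**Figure D4:**
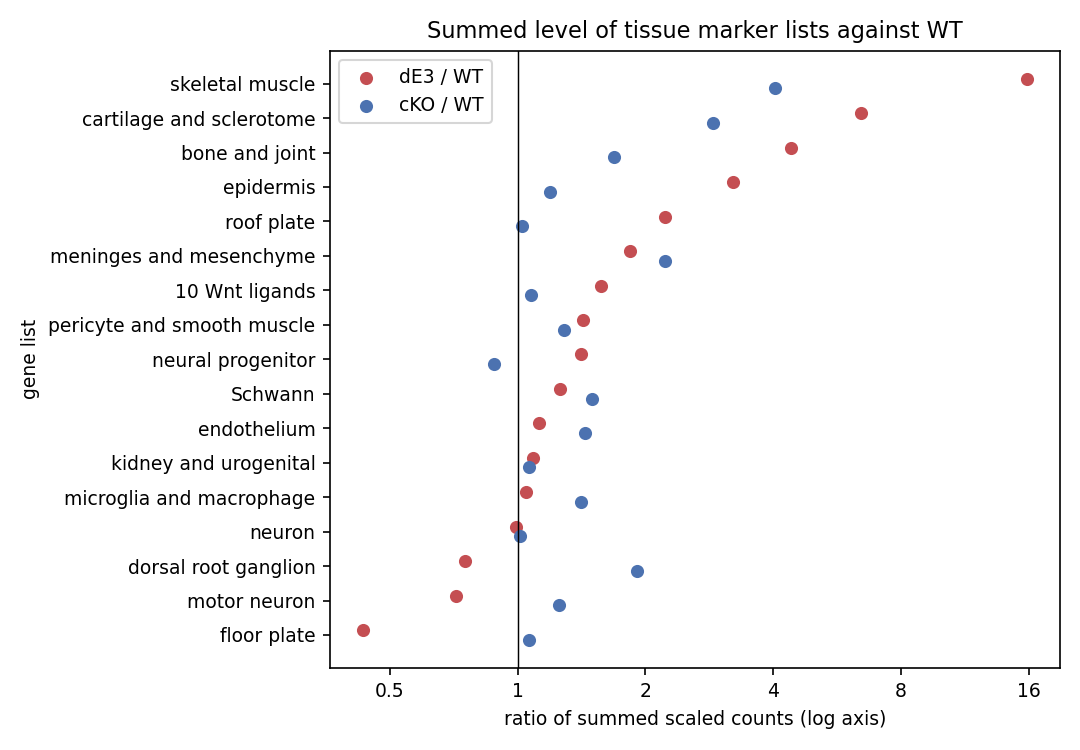
Summed scaled counts of each tissue marker list and of the 10 Wnt ligands as a ratio to WT (log axis), for dE3 in red and cKO in blue, n = 1 library per genotype. Skeletal muscle and cartilage lie farthest right in both mutants, and the 10 Wnt ligands lie at 1.57 in dE3 and 1.07 in cKO.

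**Figure D5:**
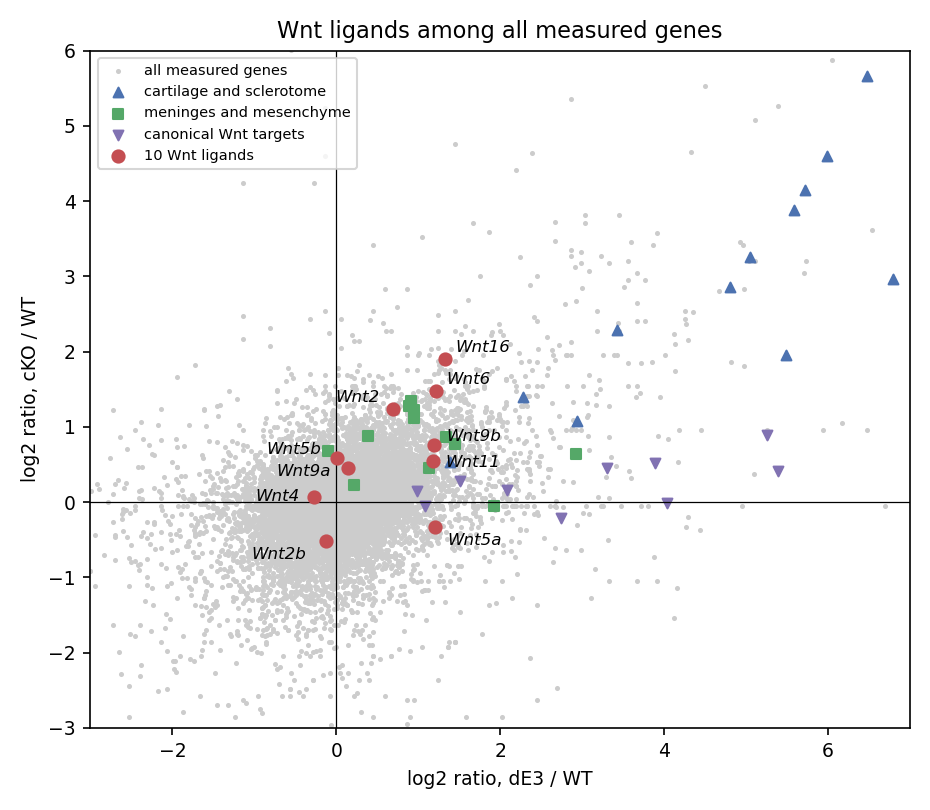
Log2 ratio of dE3 over WT (horizontal) against log2 ratio of cKO over WT (vertical), with the same WT library in both, for all measured genes (grey) and for named groups. The 10 Wnt ligands are red, Wnt9b among them although it was below the minimum, and genes outside the plotted range are not drawn. Wnt6 and Wnt16 lie to the upper right at log2 values of 1.21 and 1.48, and 1.33 and 1.91, while Wnt5a lies at 1.21 and -0.32.

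The genes with the ratios most like those of each called ligand were taken from 12491 genes with at least 100 counts in a library, by distance between the log2 ratio to WT in dE3 and in cKO, over 3 libraries only. Nearest to Wnt5a were Lpar6, Tead2 and Cenpk, at distances of 0.0380, 0.0388 and 0.0686. Tead2, a TEAD-family transcription factor, had 4717 counts in dE3, 1504 in cKO and 1816 in WT. Nearest to Wnt11 were Ror1 at 0.0218, the fibronectin gene Fn1 at 0.0227 and Cmtm7 at 0.0307. Fn1 had 11080 counts in dE3, 6800 in cKO and 4516 in WT. Wnt6 had Lrrc4b at 0.0176, Loxl1, which crosslinks elastin, at 0.0407, and Alg11 at 0.117. Wnt16 had Enpp1 at 0.0636, the mesodermal homeobox gene Meox2 at 0.169 and Asphd1 at 0.193, and Wnt2 had Creb3l1 at 0.0663, Gstm2 at 0.0666 and Tgfbr3 at 0.0717. The minimum of 100 counts did not apply to the ligands. Wnt16 and Wnt2 had at most 31 and 22 counts in a library, so their own ratios, and thus their nearest genes, are uncertain.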

How the data were processed

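RNA of embryonic spinal cord was sequenced from 1 library per genotype (dE3, cKO and WT), prepared with a VAHTS mRNA kit, per the labels' protocols. CASAVA, Bowtie2 2.3.2 and GRCm38.p6 stand in the submitters' processing notes, with no role given. No source used here names the quantification tool, the annotation release or the use of strand. The authors deposited estimated counts as whole numbers for 51826 genes and 128622 transcripts. The authors also deposited TPM values, used for levels and as an alternative, and FPKM values, which were not used for results.

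Library sizes were scaled by TMM (edgeR 4.0.16, R 4.3.3), with factors of 1.007 in dE3, 0.999 in cKO and 0.993 in WT from genes with at least 20 counts in at least 1 library. That left 18074 measured genes, of which those at 0 in both libraries of a comparison were not tested in it. Ratios had exact conditional binomial (Clopper-Pearson) intervals at 95% (scipy 1.17.1), and a floor of 3 counts stood for 0. The labels name no molecular identifiers, so PCR copies may be among the reads, and intervals and floors describe counting error alone. Coordinates equalled those of GENCODE vM21 except for the end of Wnt5a. Transcript starts within 2000 bases were grouped, after the values were seen, and a gap of 1000 bases moved only 2 counts of Wnt5a. Alternatives were DESeq2 1.42.0 size factors, total counts, TMM factors from all genes (added after the data were seen), other minimum counts and folds, deposited TPM, and leaving out the most different transcript.

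The ligands and the gene lists were chosen with earlier results of these data known. Named were all 10 ligands, pathway genes called in a mutant (up to 4 a list) with Ror1, Ror2, Ryk, Ptk7, Wls, Porcn, Axin2 and Ctnnb1, the 3 genes nearest to each called ligand, and Wnt neighbours within 100 kb. Genes left out of the list of nearest genes were Gm-number, Rik, clone-named, pseudogene, mitochondrial, ribosomal protein and unnamed genes. Gm2670, Gm8398 and Fbxl14 were named because they overlap a ligand.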

Additional observations from a re-analysis of the deposited data

How the results depend on the processing

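No paired analysis was possible because each genotype has 1 library, and for the same reason no library could be left out. The counts of called ligands, 4 in dE3 against WT, 3 in cKO against WT and 1 in dE3 against cKO, were the same with DESeq2 size factors, total counts, TMM factors from all genes and no minimum count, and no scaling moved a ligand by more than 0.028 on the log2 scale. At a fold of 3 the counts were 0, 1 (Wnt16) and 0, with 5%, 2.93% and 5.04% of all genes called in either direction. With a minimum of 100 counts, cKO against WT kept 1 (Wnt6), with 2.87% of all genes called, and dE3 against WT 3, with 6.32%. Wnt6 and Wnt11 passed that minimum only through mutant libraries. At a fold of 1.5, dE3 against cKO had 2 (Wnt5a and Wnt11), with 22% of all genes called. By deposited TPM, where calls used the ratio alone and no interval, cKO against WT had 4, with Wnt11 added and 8.19% of all genes called. Leaving out each gene's most different transcript gave 0, 2 (Wnt2 and Wnt11) and 0, with 15.3%, 13.5% and 16.5% of all genes called. It reversed the log2 ratio of Wnt16 in dE3 against WT to -0.13, where 8 counts remained in each library, and that of Wnt6 in cKO against WT to -0.047, where 7 counts remained in each. Of the 19 ratios this setting gave, 7 changed sign, these 2 called ones and 5 that had not been called. The 5 were Wnt5b in dE3 against WT, Wnt5a in cKO against WT, and Wnt2b, Wnt6 and Wnt16 in dE3 against cKO. With TMM factors from all genes, Wnt5b in dE3 against WT also changed sign, at a log2 ratio of -0.0043 against 0.01. Depth limits Wnt2, Wnt9b and Wnt16, which had at most 31 counts in any library.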
